A study of Homo sapiens with 4 samples.

Results

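Hypoxia response genes are genes whose expression, or whose protein, rises in cells when oxygen is low. The set described here held 10 of them, listed by name, namely HIF1A, EPAS1, EGLN3, VEGFA, ADM, CA9, BNIP3, DDIT4, NDRG1 and BHLHE40. A gene was measured through a probe set that the array annotation assigns to 1 symbol alone, and 9 of the 10 genes had such a probe set, out of 18417 genes in all. CA9, a carbonic anhydrase of the cell surface, had none in the annotation used and was not analysed here. Each of the 9 measured genes had a single probe set, and all 9 were kept, as no filter on low signals was applied. PC3 is a human cell line that was established from prostate cancer cells of a bone metastasis. The labels name the arrays PC3-PDEF, for cells made to over-express the ETS transcription factor PDEF (gene SPDEF), and PC3-SCR, for cells with an empty pBABE vector, with 2 arrays each. The sources used here describe no low-oxygen treatment of any sample. The name PC3-SCR does not itself spell out an empty vector, which the treatment notes give. The labels do not say whether the engineered cells were 1 clone or a pool, or whether a group's arrays stand for separate cultures, so a p-value here reflects spread among arrays that may be technical.

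Cells sense oxygen through hydroxylase enzymes, the EGLN proteins, which need oxygen to modify the alpha subunits of the hypoxia-inducible factors (HIF). The modified subunits are tagged for destruction by a ubiquitin ligase that contains VHL. When oxygen falls, the subunits, encoded by HIF1A and EPAS1, persist, pair with ARNT and switch on genes for blood vessel growth, glucose use, pH control and mitochondrial turnover. Most of this control acts on the protein, so mRNA levels of HIF1A and EPAS1 do not measure HIF activity. Prostate tumours are often poorly oxygenated, and NDRG1, DDIT4 and BHLHE40 are also known to answer to other stresses.

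The arrays were checked against their labels before the genes were compared. SPDEF had log2 signals of 6.85 and 6.73 in PC3-PDEF, against 5.99 and 6.06 in PC3-SCR (log2 fold change 0.77 with a standard error, SE, of 0.088, adjusted p = 0.000563). CTNNA1 and STAT3, both reported by other work to be lost from the genome of PC3 cells, had signals of 9.76 and 9.86 and of 9.06 and 9.05 in PC3-PDEF, against 4.77 and 4.07 and 4.51 and 4.70 in PC3-SCR. The signals in PC3-PDEF therefore go against a label of PC3 cells alone, and this difference separates the same arrays as PDEF does, so the effects of the 2 cannot be told apart in any result given here. As a gauge of background, the highest of 341 olfactory receptor genes stood at 5.65 and 5.75 in PC3-PDEF and at 5.94 and 6.01 in PC3-SCR. The SPDEF signals in PC3-SCR lay just above this gauge, so the size of its rise is not exact. Marker lists are given beside the shares of all genes called lower (24.0%) or higher (26.7%). Of 8 proliferation genes 6 were higher and 2 lower in PC3-PDEF, with summed linear signals of 9056 to 9229 against 5852 to 5867 in PC3-SCR. Of 8 kidney lineage genes 3 were higher (37.5%) and 2 lower (25%), with sums of 744 to 791 against 568 to 575. Of 8 epithelial and prostate genes 2 were lower (25%), with sums of 1397 to 1477 against 1974 to 2056 in PC3-SCR. Of 8 fibroblast genes 3 were lower (286 to 312 against 528 to 606), of 6 endothelial genes 4, with KDR the only gene above the gauge and that in PC3-SCR alone (103 to 105 against 215 to 246), and of 5 leukocyte genes CD68 alone (294 to 296 against 872 to 910), and no gene of the epithelial, fibroblast, endothelial and leukocyte lists was higher. Above the gauge on all 4 arrays were 2 of the 5 leukocyte genes (CD68 and TYROBP) and 1 of the 8 fibroblast genes (COL1A1), while PTPRC, CD3E, DCN and PDGFRA were below it on all 4. The part of these differences in the results on hypoxia genes was not tested, and in bulk RNA fewer cells of a type and less RNA per cell cannot be told apart.

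Hypoxia response genes were mostly lower in PC3-PDEF. Of the 9 measured genes, 7 fell and EGLN3 rose at an adjusted p under 0.05 in limma, and ADM did not pass. Over all genes, 24.0% fell and 26.7% rose at the same threshold. Of all genes, 7633 had no group with both arrays above the gauge of background, while each of the 9 genes had such a group. In a fit of the 9208 genes above the median level, 3009 fell and 3928 rose, with 7 of the 9 genes lower and 1 higher. The falls of BHLHE40, DDIT4, VEGFA and HIF1A were at least 2-fold, a size that 6.07% of all genes reached downward and 8.67% upward. For each of the 9 genes the PC3-PDEF and PC3-SCR arrays were fully apart, as for 74.7% of all genes, and for 8 of them PC3-PDEF was the lower group, which held for 39.7% of all genes. The median log2 fold change was -0.79 over the 9 genes and -0.05 over all genes.

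**Figure D1:**
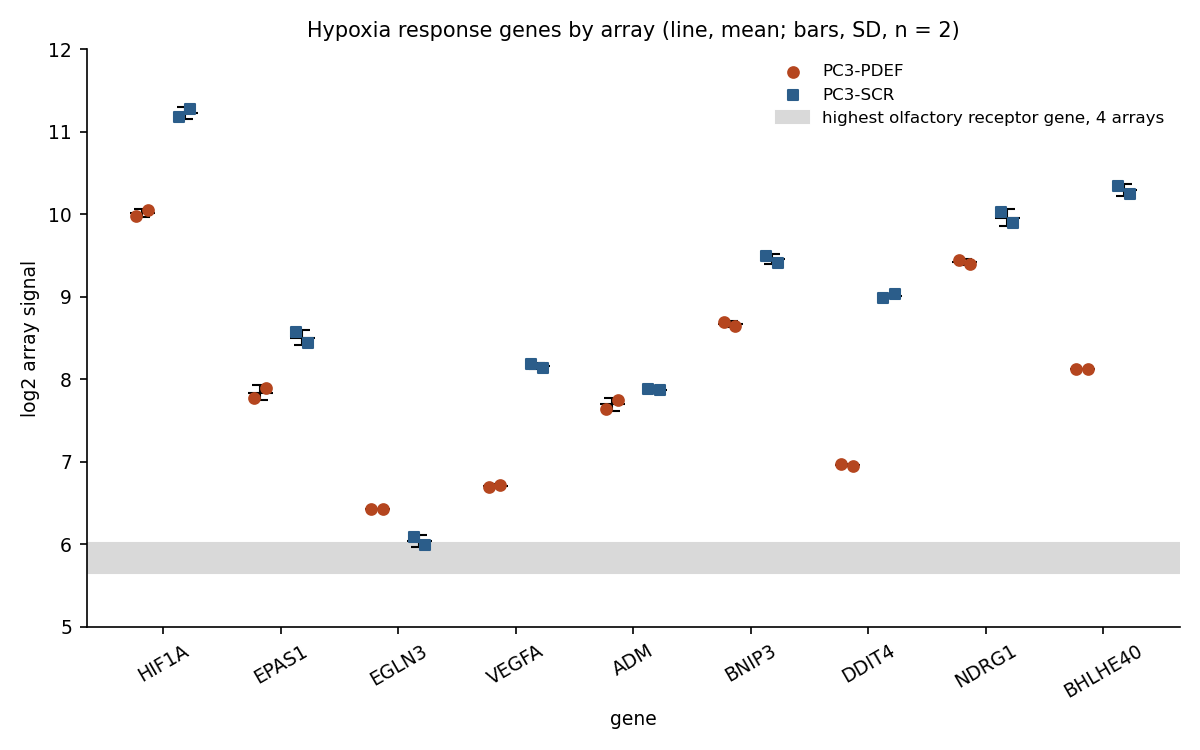
Log2 array signal (vertical axis) of the 9 measured hypoxia response genes (horizontal axis) in the PC3-PDEF arrays (circles) and the PC3-SCR arrays (squares), where a line marks each mean and bars mark the SD of 2 arrays. The grey band spans the highest olfactory receptor gene of the 4 arrays, 5.65 to 6.01. The groups lie apart for each gene, with PC3-PDEF above PC3-SCR for EGLN3 alone.

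Both genes of the oxygen-regulated HIF alpha subunits fell. HIF1A, whose protein is found in most cell types, had log2 signals of 9.98 and 10.05 in PC3-PDEF, against 11.18 and 11.28 in PC3-SCR. The 2 arrays of each group lay within 0.1 of each other and more than 1 unit from the other group. PC3-PDEF was 2.32-fold lower (log2 fold change -1.22, SE 0.086, adjusted p = 7.34e-05). EPAS1, the gene of the related alpha subunit first described in endothelium, had signals of 7.77 and 7.90 in PC3-PDEF, against 8.57 and 8.44 in PC3-SCR. Its arrays did not overlap either, but the fall was smaller, with a change of -0.67 on the log2 scale (SE 0.095, adjusted p = 0.00139), a 1.59-fold lower level. The 95% confidence intervals of the log2 fold changes were -1.43 to -1.01 for HIF1A and -0.90 to -0.44 for EPAS1. Of the related subunit gene HIF3A, all 4 signals were below the gauge of background (4.51 and 4.46 in PC3-PDEF, 4.93 and 4.91 in PC3-SCR).

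EGLN3 was the one gene of the set that rose. It encodes an oxygen-dependent hydroxylase of the HIF alpha subunits and is itself a HIF target. Its signals were 6.43 and 6.43 in PC3-PDEF, against 6.09 and 5.99 in PC3-SCR, where the second lay below the highest olfactory receptor gene of its array. The group difference is therefore measured close to background, and its size is not exact. The log2 fold change was 0.39 (SE 0.084, adjusted p = 0.00885). This call was lost without PC3-PDEF replicate 1 (adjusted p = 0.0768), without PC3-PDEF replicate 2 (0.0794) or without PC3-SCR replicate 2 (0.0554), and over 11 alternatives the adjusted p ranged from 0.00166 to 0.0794.

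The secreted products of the set behaved differently from each other. VEGFA, the main growth factor for blood vessels, had signals of 6.69 and 6.72 in PC3-PDEF, against 8.19 and 8.14 in PC3-SCR. Both PC3-PDEF arrays were far below both PC3-SCR arrays, while arrays of 1 group differed by at most 0.05. PC3-PDEF was 2.75-fold lower (log2 fold change -1.46, SE 0.081, adjusted p = 2.93e-05). ADM encodes adrenomedullin, a peptide that widens vessels. Its signals were 7.64 and 7.75 in PC3-PDEF, against 7.88 and 7.87 in PC3-SCR. Both PC3-PDEF arrays were below both PC3-SCR arrays, by a small margin. The log2 fold change of -0.18 had a 95% confidence interval of -0.39 to 0.03 (adjusted p = 0.127), which leaves out a 2-fold change. ADM depended on scaling, with a log2 fold change of -0.28 (adjusted p = 0.0272) after quantile normalization and of -0.25 (adjusted p = 0.0465) after median centring, and the adjusted p ranged from 0.0272 to 0.283 over 11 alternatives.

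The largest falls of the set were those of intracellular response genes. BHLHE40, a transcriptional repressor that binds E-box letters and takes part in the circadian clock, had signals of 8.12 and 8.12 in PC3-PDEF, against 10.34 and 10.24 in PC3-SCR. This was a 4.50-fold lower level (log2 fold change -2.17, SE 0.084, adjusted p = 8.22e-06). By size of change in either direction it stood at rank 561 of 18417 genes. DDIT4, also called REDD1, encodes an inhibitor of the growth kinase mTOR. It had signals of 6.97 and 6.95 in PC3-PDEF, against 8.99 and 9.03 in PC3-SCR. Its level was 4.14-fold lower (log2 fold change -2.05, SE 0.080, adjusted p = 8.48e-06), at rank 637. Both genes were dimmer by more than 2 log2 units in PC3-PDEF, while arrays of 1 group differed by at most 0.1.

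BNIP3 and NDRG1 fell less. BNIP3, a protein of the outer mitochondrial membrane that marks mitochondria for removal, had signals of 8.69 and 8.64 in PC3-PDEF, against 9.50 and 9.41 in PC3-SCR. PC3-PDEF was 1.73-fold lower (log2 fold change -0.79, SE 0.084, adjusted p = 0.000396). NDRG1, a protein linked to differentiation and to slower spread of prostate tumours, had signals of 9.45 and 9.40 in PC3-PDEF, against 10.03 and 9.89 in PC3-SCR. PC3-PDEF was 1.45-fold lower (log2 fold change -0.54, SE 0.090, adjusted p = 0.00297). Each gene separated the groups without overlap. The call of NDRG1 was lost without PC3-PDEF replicate 1 (adjusted p = 0.0558) or without PC3-PDEF replicate 2 (0.0665), and its adjusted p ranged from 2.59e-05 to 0.0665 over 11 alternatives, while the other 6 falls passed in all 11.

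**Figure D2:**
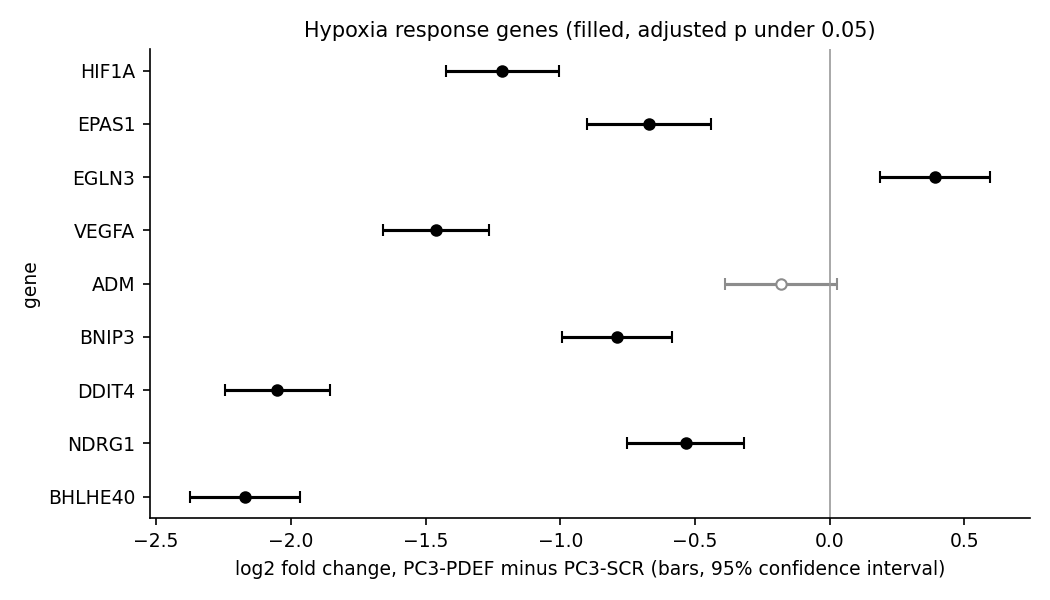
Log2 fold change of PC3-PDEF over PC3-SCR (horizontal axis) of each measured hypoxia response gene (vertical axis), with its 95% confidence interval from limma as a bar and 2 arrays per group. Filled points passed an adjusted p under 0.05. BHLHE40 lies at -2.17 and DDIT4 at -2.05, EGLN3 at 0.39, and the interval of ADM, -0.39 to 0.03, includes 0.

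HIF binds short DNA elements whose core letters are ACGTG or GCGTG, and the promoters of the measured genes were searched for them on both strands. Promoters were taken from RefSeq (GRCh38.p14) as the 250 bases before an annotated start. The promoter set used held such a window for 7 of the 9 measured genes. It held none for VEGFA and NDRG1, which were not searched. At least 1 core lay in 49.7% of 20109 such windows of genes on the array, and ACGTG in 20.3%. Both cores were absent from the window of EGLN3, the gene that rose, and from the second window of HIF1A, a gene that fell. GCGTG alone occurred once each in the windows of EPAS1 and ADM and in the first of 2 windows of HIF1A. ACGTG occurred in BHLHE40, DDIT4 and BNIP3, all lower in PC3-PDEF. These 3 windows are printed as the ones with ACGTG, and that of EGLN3 as the one of the gene that rose, 5′ to 3′ on the strand of the gene, with capitals for the cores. Where the letters read CACGTG, the E-box bound by BHLHE40 itself, ACGTG overlaps on both strands, and CACGTG occurs in 7.4% of the windows of genes on the array. The BHLHE40 window holds 3 separate sites, of which 1 is CACGTG starting 245 bases before the start. The DDIT4 window holds 3 sites, ACGTG at 125 bases and GCGTG at 219 and 53 bases before the start. The BNIP3 window holds 5 sites in a stretch from 143 to 104 bases before the start, of which 1 is CACGTG. A match describes letters only, and HIF also binds outside these windows. Whether the cores bear on the direction of change was not tested.
BHLHE40 (chr3:4979187-4979436, + strand): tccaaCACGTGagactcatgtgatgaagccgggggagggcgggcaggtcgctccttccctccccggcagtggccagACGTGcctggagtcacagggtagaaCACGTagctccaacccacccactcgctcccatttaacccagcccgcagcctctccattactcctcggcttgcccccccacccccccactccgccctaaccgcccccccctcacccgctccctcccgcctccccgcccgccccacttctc
DDIT4 (chr10:72273674-72273923, + strand): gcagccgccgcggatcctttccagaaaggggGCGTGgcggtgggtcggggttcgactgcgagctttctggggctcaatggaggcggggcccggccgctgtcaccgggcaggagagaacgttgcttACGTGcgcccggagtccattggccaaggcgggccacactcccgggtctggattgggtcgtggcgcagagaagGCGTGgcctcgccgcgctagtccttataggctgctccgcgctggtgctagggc
BNIP3 (chr10:131981924-131982173, - strand): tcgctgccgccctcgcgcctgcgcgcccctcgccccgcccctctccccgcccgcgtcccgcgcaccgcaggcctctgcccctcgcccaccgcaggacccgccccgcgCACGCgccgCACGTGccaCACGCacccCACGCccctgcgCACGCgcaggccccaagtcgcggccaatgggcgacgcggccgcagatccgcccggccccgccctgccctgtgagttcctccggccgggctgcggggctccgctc
EGLN3 (chr14:33951075-33951324, - strand): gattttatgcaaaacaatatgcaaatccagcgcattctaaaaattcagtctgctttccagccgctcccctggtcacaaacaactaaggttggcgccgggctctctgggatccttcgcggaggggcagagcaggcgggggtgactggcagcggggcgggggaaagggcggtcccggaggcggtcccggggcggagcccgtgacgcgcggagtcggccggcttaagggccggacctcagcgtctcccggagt

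The machinery that senses oxygen and controls HIF changed in both directions. Of 17 regulators listed beside the set, 16 were measured, with 7 higher (43.75%), 3 lower (18.75%) and 6 that did not pass. Among all genes 26.7% were higher and 24.0% lower. The median log2 fold change of the regulators was 0.10. After quantile normalization 5 fell. The lists used here were written from general knowledge, and genes beyond the largest changes of each list were named after their values were seen. The hydroxylase genes EGLN1 and HIF1AN rose. EGLN1, the main oxygen sensor among the hydroxylases that mark HIF for destruction, had signals of 8.36 and 8.29 in PC3-PDEF, against 7.68 and 7.56 in PC3-SCR, a change of 0.71 on the log2 scale (SE 0.088, adjusted p = 0.000806). HIF1AN, also called FIH, blocks the activating part of HIF and had signals of 8.21 and 8.23 in PC3-PDEF, against 7.38 and 7.40 in PC3-SCR, a change of 0.83 on the log2 scale (SE 0.080, adjusted p = 0.000252). In each case the groups lay apart by far more than the arrays within them.

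Subunits of the VHL ubiquitin ligase moved in opposite directions. CUL2, the scaffold subunit, had signals of 8.32 and 8.54 in PC3-PDEF, against 10.31 and 10.34 in PC3-SCR. Its change of -1.90 on the log2 scale (SE 0.101, adjusted p = 2.52e-05) was the largest fall among the 16 regulators. ELOC, an adaptor subunit, fell by 0.67 on the log2 scale (adjusted p = 0.00106). RBX1, which recruits the enzyme that carries ubiquitin, had signals of 8.94 and 9.27 in PC3-PDEF, against 8.11 and 8.20 in PC3-SCR, and rose by 0.95 (SE 0.125, adjusted p = 0.001). The call of RBX1 was lost without PC3-SCR replicate 1 (adjusted p = 0.0601) or without PC3-SCR replicate 2 (0.0515). ELOB, the partner of ELOC, rose by 0.32 (adjusted p = 0.0234), a call lost in 6 of 11 alternatives, over which the adjusted p ranged from 0.00155 to 0.131. VHL itself, the subunit that recognises HIF, had signals of 8.27 and 8.11 in PC3-PDEF, against 8.06 and 8.02 in PC3-SCR, and did not pass the test (log2 fold change 0.15, adjusted p = 0.222).

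Among the partners of HIF, ARNT2 rose. ARNT2, a form of the beta subunit best known from neurons and kidney, had signals of 6.16 and 6.29 in PC3-PDEF, against 4.75 and 4.57 in PC3-SCR, which were below the gauge of background. The log2 fold change of 1.57 (SE 0.101, adjusted p = 5.02e-05) is therefore not exact. ARNT, the common beta subunit, had signals of 9.16 and 9.13 in PC3-PDEF, against 9.16 and 9.08 in PC3-SCR, with overlapping groups and a 95% confidence interval of the log2 fold change of -0.18 to 0.23 (adjusted p = 0.827). The coactivator genes CREBBP and EP300 rose by 0.87 (SE 0.106, adjusted p = 0.000736) and by 0.58 (SE 0.085, adjusted p = 0.00161). CITED2, which competes with HIF for these coactivators, was called neither way (log2 fold change -0.18, adjusted p = 0.201, and 0.0426 after quantile normalization). HIF3A, below the gauge on all 4 arrays, counts among the 3 lower regulators, but the size of its change is not given.

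**Figure D3:**
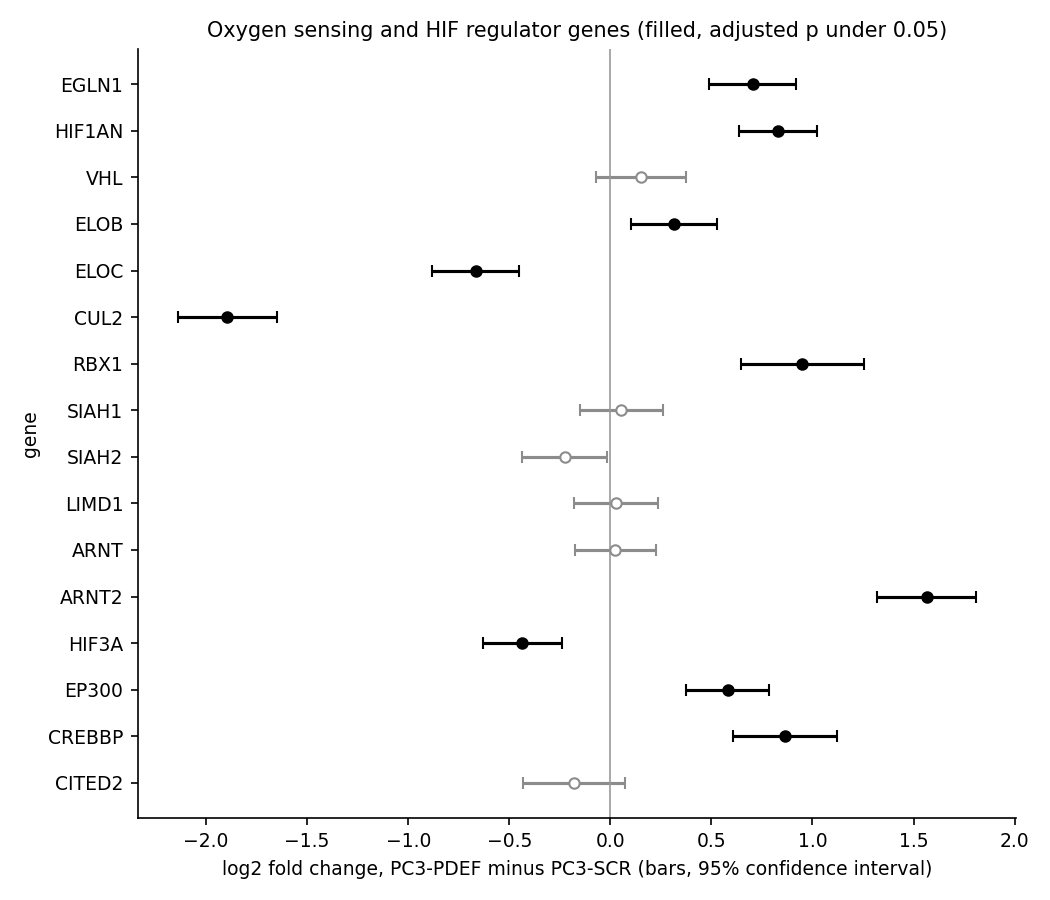
Log2 fold change of PC3-PDEF over PC3-SCR (horizontal axis) of the 16 measured oxygen sensing and HIF regulator genes (vertical axis), with the 95% confidence interval from limma as a bar and 2 arrays per group. Filled points passed an adjusted p under 0.05. CUL2 lies lowest at -1.90 and ARNT2 highest at 1.57.

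Other known HIF targets were compared by role. Of 59 listed, 53 were measured, with 29 lower (54.7%), 10 higher (18.9%) and 14 that did not pass, beside 24.0% lower and 26.7% higher among all genes. The median log2 fold change was -0.33. At least 2-fold, 11 fell and 4 rose, a size that 6.07% of all genes reached downward and 8.67% upward. RORA, 1 of the 4, was below the gauge of background on all 4 arrays.

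Genes of secreted proteins and of collagen modification were mostly lower. Of 12 listed, 11 were measured, with 9 lower (81.8%), CXCR4 higher (9.1%) and ANGPTL4 not past the threshold. Among all genes 24.0% were lower and 26.7% higher. ANGPTL4 and 2 of the 9 lower genes, EDN1 and EPO, were below the gauge on all 4 arrays. The median log2 fold change of the 11 measured genes was -0.98, against -0.05 over all genes. LOXL2, an enzyme that cross-links collagen, had signals of 8.28 and 8.10 in PC3-PDEF, against 11.15 and 11.01 in PC3-SCR, a change of -2.89 on the log2 scale (SE 0.102, adjusted p = 6.05e-06). P4HA1, the catalytic subunit of collagen prolyl hydroxylase, had signals of 9.39 and 9.46 in PC3-PDEF, against 11.14 and 11.17 in PC3-SCR, a log2 fold change of -1.73 (adjusted p = 1.66e-05). The hormone gene STC2 fell by 1.54 (adjusted p = 0.000115) and the collagen lysyl hydroxylase gene PLOD1 fell by 1.46 (adjusted p = 3.08e-05). CXCR4, a chemokine receptor, rose by 0.36 (adjusted p = 0.0136) with signals below the gauge in PC3-SCR, and lost its call when any 1 array was left out (adjusted p from 0.0565 to 0.0897).

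Genes of glucose uptake and use were lower for the most part, with one large exception. Their median log2 fold change was -0.52, against -0.05 over all genes, of which 24.0% were lower and 26.7% higher. PPP1R3C, 1 of the lower genes, was below the gauge on all 4 arrays. Of 21 listed, 19 were measured, with 12 lower (63.2%), 3 higher (15.8%) and 4 that did not pass. The 3 became 1 without PC3-PDEF replicate 1, without PC3-PDEF replicate 2 or without PC3-SCR replicate 2. SLC2A3, the glucose transporter GLUT3 of neurons, had signals of 8.74 and 8.72 in PC3-PDEF, against 4.06 and 4.60 in PC3-SCR, below the gauge of background. Its change of 4.40 on the log2 scale (SE 0.172, adjusted p = 8.48e-06) is not exact. SLC2A1, the common transporter GLUT1, went the other way, with signals of 8.34 and 8.22 in PC3-PDEF, against 8.98 and 8.92 in PC3-SCR, a change of -0.67 on the log2 scale (SE 0.088, adjusted p = 0.000983). GBE1, which branches glycogen, fell by 2.39 (SE 0.084, adjusted p = 6.02e-06). The aldolase gene ALDOC fell by 1.46 (adjusted p = 2.83e-05), the enolase gene ENO2 fell by 1.38 (adjusted p = 5.40e-05) and LDHA, which makes lactate, fell by 0.69 (adjusted p = 0.000584). The glycogen synthase gene GYS1 rose by 0.50 (adjusted p = 0.00542), a call lost in 3 of 11 alternatives (adjusted p from 0.000951 to 0.0908), and PFKFB3, a regulator of glycolysis, rose by 0.27 (adjusted p = 0.0397), a call lost in 8 of 11 (adjusted p from 0.0118 to 0.192). GPI, PFKP, ALDOA and TPI1 had log2 fold changes of -0.10, 0.17, -0.12 and -0.24 and did not pass the test, though TPI1 passed in 3 of 11 alternatives (adjusted p from 0.00247 to 0.254).

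The other intracellular targets split, with 34.8% of those measured lower and 26.1% higher, beside 24.0% and 26.7% of all genes. Of 26 listed, 23 were measured, with 8 lower, 6 higher and 9 that did not pass. Their median log2 fold change was -0.05, that of all genes. RORA, 1 of the 6 higher, was below the gauge on all 4 arrays. Without PC3-PDEF replicate 1 only 4 fell, and without PC3-PDEF replicate 2 only 5. RRAGD, a GTPase that carries amino acid signals to mTOR, had signals of 8.51 and 8.57 in PC3-PDEF, against 5.24 and 5.06 in PC3-SCR, below the gauge there, so that the log2 fold change of 3.39 (SE 0.096, adjusted p = 3.49e-06) is not exact. AK4, a mitochondrial adenylate kinase, rose by 1.09 (adjusted p = 0.000101, and by 0.65 as the mean of its probe sets), HILPDA, which acts on lipid droplets, by 0.71 (adjusted p = 0.000815) and WSB1 by 0.65 (adjusted p = 0.000742). TMEM45A fell by 1.36 (adjusted p = 4.17e-05), and TFRC, the receptor that brings in iron, had signals of 9.49 and 9.52 in PC3-PDEF, against 10.81 and 10.84 in PC3-SCR, a log2 fold change of -1.32 (adjusted p = 3.96e-05).

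**Figure D4:**
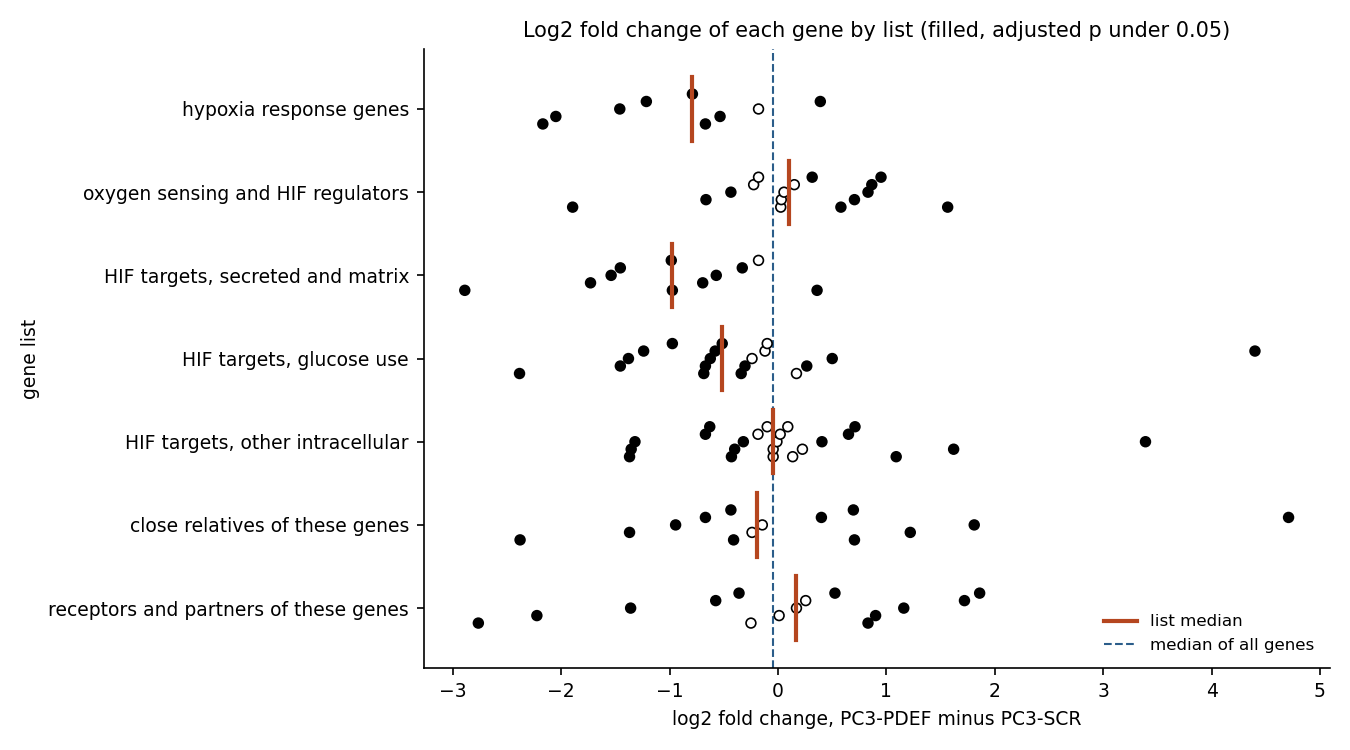
Log2 fold change of PC3-PDEF over PC3-SCR (horizontal axis) of each measured gene in the hypoxia response set and in 6 further lists (vertical axis), with list medians (solid lines) and the median of all genes (dashed line, -0.05). Filled points passed an adjusted p under 0.05. The median lies at -0.79 for the hypoxia response genes and at -0.98 for secreted and matrix targets, and at 0.10 for the regulators.

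Close relatives of the set did not move as one, with 42.9% of those measured higher and 42.9% lower, beside 26.7% and 24.0% of all genes. Of 16 listed, some of which stand in other lists too, 14 were measured, with 6 higher, 6 lower and 2, ADM2 and NDRG4, that did not pass (log2 fold changes -0.15 and -0.24). ADM2 passed after quantile normalization (adjusted p = 0.047). HIF3A, 1 of the 6 lower genes, and DDIT4L, 1 of the 6 higher, were below the gauge on all 4 arrays. BNIP3L, the relative of BNIP3 with the same role in mitochondrial removal, had signals of 8.44 and 8.61 in PC3-PDEF, against 9.91 and 9.88 in PC3-SCR, a change of -1.37 on the log2 scale (SE 0.093, adjusted p = 6.03e-05), so both genes of this pair were lower. The relatives of VEGFA diverged. VEGFC, which acts on lymph vessels, fell by 2.38 (SE 0.090, adjusted p = 7.66e-06) and VEGFB fell by 0.95 (adjusted p = 0.000206), whereas PGF had signals of 6.37 and 6.31 in PC3-PDEF, against 5.04 and 5.20 in PC3-SCR, below the gauge there, and rose by 1.22 (adjusted p = 9.61e-05). NDRG2 went opposite to NDRG1, with signals of 7.36 and 7.61 in PC3-PDEF, against 5.74 and 5.61 in PC3-SCR, also below the gauge, and a change of 1.81 on the log2 scale (SE 0.112, adjusted p = 4.33e-05). The sizes of the rises of PGF and NDRG2 are therefore not exact. BHLHE41, the paralog of BHLHE40, fell by 0.41 (adjusted p = 0.025), a call lost in 5 of 11 alternatives (adjusted p from 0.00665 to 0.209). Of the carbonic anhydrases related to CA9, CA12 at the cell surface fell by 0.67 (adjusted p = 0.000873), and the cytosolic CA2 had signals of 9.22 and 9.23 in PC3-PDEF, against 4.60 and 4.43 in PC3-SCR, below the gauge there, a change of 4.71 on the log2 scale that is not exact (SE 0.093, adjusted p = 2.50e-06).

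Receptors and partners of the encoded proteins also changed in both directions, with 40% higher and 33.3% lower, beside 26.7% and 24.0% of all genes. Of 15 genes, all measured, 6 were higher, 5 lower and 4 did not pass, and 3 were lower without PC3-PDEF replicate 1, without PC3-PDEF replicate 2 or without PC3-SCR replicate 1. The VEGF coreceptor gene NRP1 had signals of 7.76 and 7.74 in PC3-PDEF, against 10.47 and 10.56 in PC3-SCR, a change of -2.77 on the log2 scale (SE 0.083, adjusted p = 3.99e-06), and NRP2 fell by 1.36 (adjusted p = 4.68e-05). KDR, the main VEGF receptor of endothelium, had signals of 4.78 and 4.87 in PC3-PDEF, below the gauge, against 6.95 and 7.15 in PC3-SCR, and fell by 2.23 (adjusted p = 1.42e-05). FLT4, the receptor of VEGFC, had signals of 7.07 and 7.07 in PC3-PDEF, against 5.17 and 5.53 in PC3-SCR, below the gauge there, and rose by 1.72 (adjusted p = 9.08e-05). The sizes of the changes of KDR and FLT4 are therefore not exact. In the RAMP family of coreceptor genes, RAMP1 fell by 0.58 (adjusted p = 0.0106), a call lost in 4 of 11 alternatives. Its log2 fold change was -0.72 to -0.44 when 1 array was left out. RAMP2 was below the gauge on all 4 arrays and RAMP3 on 2 of them, and neither passed the test, although RAMP3 passed after quantile normalization (adjusted p = 0.0286) or median centring (0.0234). Along the path from DDIT4 to mTOR, TSC1 rose by 1.16 (SE 0.101, adjusted p = 0.000166) and TSC2 by 0.53 (adjusted p = 0.00271, and 0.0522 without PC3-PDEF replicate 1), both of which encode subunits of the brake on mTOR. RHEB, the switch that they hold off, did not pass (log2 fold change 0.17, adjusted p = 0.127, and 0.027 with a prior that follows the signal), nor did BECN1, which acts in autophagy (0.26, adjusted p = 0.0761, and 0.03 to 0.29 over 11 alternatives). MTOR fell by 0.36 (adjusted p = 0.016), a call lost in 3 of 11 alternatives (adjusted p from 0.00194 to 0.118). BCL2, a survival protein that BNIP3 binds, was below the gauge in PC3-SCR, and its rise of 0.83 (adjusted p = 0.00217, and 0.0615 or 0.09 without PC3-PDEF replicate 1 or 2) is not exact. The receptor genes FLT1 and CALCRL, which count among the 6 higher genes, were below the gauge on all arrays. So was the DDIT4 relative DDIT4L, and the values of FLT1, CALCRL and DDIT4L are not given.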

How the data were processed

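Total RNA of PC3-PDEF and PC3-SCR cells was hybridized to Affymetrix HuGene-1.0-st arrays, 2 per group. The authors deposited log2 signals of 33297 probe sets made with Transcriptome Analysis Console, per the labels. How that program was set (version, background correction, summarization, normalization) is not given in the sources used here. That values are log2 was read from their range, 1.68 to 13.88. Array medians were 5.41 to 5.46, so values were used as deposited. Scaling between arrays removes any shift common to all genes. The platform annotation gives 1 symbol to 19460 probe sets, several to 1754 and none to 12083, which are unnamed here. Symbols were updated through gene IDs (99.8% matched) in the GRCh38.p14 gene table, and the brightest of a gene's probe sets stood for it, which left 18417 genes. Groups were compared with limma 3.58.1 in R 4.3.3 (lmFit and eBayes, two-sided, 2 residual and 4.23 prior degrees of freedom) with the Benjamini-Hochberg adjustment over all genes, after the script had been tested on simulated data. With 2 arrays per group an exact permutation test reaches 0.333 at best (two-sided), and the number of arrays limits the precision. Genes and lists were chosen with earlier results of these data known. Named were the 10 genes and, of each further list, up to 4 with the largest called change that were above the gauge of background in both arrays of a group. Alternatives were quantile normalization, median centring, a filter on low signals, the mean of a gene's probe sets, all probe sets tested, a prior following the signal, the replicate number as a block, and leaving out each array.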

Additional observations from a re-analysis of the deposited data

How the results depend on the processing

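Of 76 named genes refitted under 11 alternatives, 52 kept their direction and their side of the threshold in each fit that tested them, among them HIF1A, EPAS1, VEGFA, BNIP3, DDIT4 and BHLHE40. The direction turned only for genes that did not pass the test, ARNT (log2 fold change -0.04 after median centring and -0.01 to 0.06 with 1 array left out, the lowest without PC3-SCR replicate 2) and RAMP2 (-0.01 after quantile normalization, -0.06 after median centring and -0.09 to 0.10 with 1 array left out, the lowest without PC3-SCR replicate 1). With any single array removed, 6 to 7 of the hypoxia response genes were lower and 0 to 1 higher, and over all genes 2326 to 2856 were lower and 3010 to 3635 higher, where all arrays gave 4419 and 4918. These fits hold fewer arrays, and the lone array of a group is assumed to vary like the other group. Replicate numbers are shared between the groups, and the deviations of same-numbered arrays from their group means correlated at 0.022 across genes. With 2 arrays per group, this value cannot show whether same-numbered arrays shared a batch. With a replicate block, 7 hypoxia response genes fell and 1 rose, and over all genes 3619 fell and 4355 rose, while PFKFB3, BHLHE41 and DDIT4L lost their calls. Median centring gave 5589 lower and 4484 higher genes. Signal over background limits what can be measured: 13 of the 94 other pathway genes had no group with both arrays above the gauge of background.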
